A study of Mus musculus with 20 samples.

Results

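The enzymes and transaminases of tryptophan breakdown along the kynurenine pathway were followed in livers of young male mice on a high-fat diet. The mice were classed as susceptible or resistant to diet-induced obesity. Members were all probes, control spots aside, whose gene name is Kyat3 (older symbol Ccbl2), Tdo2, Afmid, Kmo, Kynu, Haao, Acmsd, Qprt, Aadat or Ido2. All 10 genes were found, with 14 probes among 41174 different probes on the array, and for a gene with several probes the brightest that passed detection was used, among 17210 genes and unnamed probes tested. The list was drawn up with earlier results of these data known, and Kyat3 had been named there for its small p in this same contrast, so the group differences of the members are given as descriptions, with no test.

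The study took 20 livers from male C57BL/6J mice (strain given as C57BL/6 in one label field) fed from weaning a diet with 60% of its energy from fat, all at 6 weeks of age. There were 10 diet-induced obesity (DIO) responders, which were susceptible, and 10 DIO non-responders, which were resistant. Both groups ate the same diet, so no liver of a mouse on another diet enters a comparison. Total RNA of each liver was amplified, and its Cy3-labelled product read on 1 Agilent array. The labels name no individual animals, so the errors measure the spread between these samples, and they state neither the feeding state nor the hour of collection.

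Liver is the main organ of tryptophan breakdown. The dioxygenases open the indole ring and a formamidase releases kynurenine, which then either runs down the main chain towards quinolinate and NAD or is transaminated to kynurenic acid. Near the end of the chain, Acmsd diverts the intermediate away from quinolinate, while Qprt commits quinolinate to NAD synthesis. The liver enzyme Tdo2 is classically induced by glucocorticoids and stabilised by its substrate.

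Each array held 43379 spots that were not controls, of which none was saturated, and 55.8% to 71.2% of them were well above background. Scanning fell into 2 slide series, the first with 6 non-responders and 4 responders and the second with 4 non-responders and 6 responders, so every difference was fitted with the series as a term and also given within each series. Levels are log2 of the processed spot intensity minus the 75th percentile of the same array, so 0 is the brightness of that percentile and levels of different probes are not compared. All 8 hepatocyte markers were well above background on every array, with a mean level of 6.87 to 7.12 in responders and 6.71 to 7.72 in non-responders. Markers of fat tissue moved with the groups, being lower in responders by a mean of 1.17 (SE 0.47), in 5 of the 6 kept adipose genes. Their mean level per liver ran from -3.23 to -0.17 in responders and from -2.40 to 1.21 in non-responders, and 2 of 7 listed genes were well above background on every array. The stellate cell markers were lower in responders in 7 of 7 genes, with a mean difference of -0.30 (SE 0.17) and with Col1a1 at -0.56 (SE 0.17) and Col1a2 at -0.39 (SE 0.13). Their mean level ran from 1.11 to 2.25 in responders and from 1.35 to 2.52 in non-responders, and all 7 were well above background on every array. The macrophage markers differed by -0.09 (SE 0.16) and were well above background on every array in 8 of 8 cases. The pancreatic acinar markers ranged from -5.98 to 5.15 in responders and from -5.11 to 5.16 in non-responders. In whole liver, fewer cells of a type and less RNA per cell cannot be told apart, and the part of these markers in any result below was not tested.

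The probes that read across an exon junction show what was measured for the tryptophan dioxygenase Tdo2 and the decarboxylase Acmsd. Each spans an intron in mm9, so the genomic interval is longer than the 60 bases printed. Sequences are as in the array files, 5′ to 3′.
Tdo2, main probe, chr3:81772155-81773432, minus strand: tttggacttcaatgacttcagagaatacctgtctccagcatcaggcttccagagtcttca
Tdo2, second probe, chr3:81767918-81770928, minus strand: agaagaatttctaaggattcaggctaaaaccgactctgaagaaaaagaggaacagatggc
Acmsd, chr1:129642380-129645602, plus strand: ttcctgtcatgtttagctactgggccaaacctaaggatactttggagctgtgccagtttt

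The 250 bases before the annotated start are shown for Kyat3, the member with the largest group difference, and for Tdo2 and Qprt, of the members that moved together across livers. They come from RefSeq (GRCm38.p6), from which the promoters of 7 members were searched. Capitals mark motif matches on either strand, and each line reads in the direction of the gene.
Kyat3 promoter, chr3:142700798-142701047, plus strand: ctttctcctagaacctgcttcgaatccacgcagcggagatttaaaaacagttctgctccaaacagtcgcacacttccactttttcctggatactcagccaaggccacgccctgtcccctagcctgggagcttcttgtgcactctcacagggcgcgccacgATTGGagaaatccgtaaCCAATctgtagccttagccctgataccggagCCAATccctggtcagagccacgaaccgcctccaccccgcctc
Tdo2 promoter, chr3:81975729-81975978, minus strand: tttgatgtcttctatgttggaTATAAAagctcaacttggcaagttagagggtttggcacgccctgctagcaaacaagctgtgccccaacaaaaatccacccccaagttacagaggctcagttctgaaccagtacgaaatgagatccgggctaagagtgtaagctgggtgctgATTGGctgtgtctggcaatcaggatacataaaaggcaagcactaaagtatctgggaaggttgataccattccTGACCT
Qprt promoter, chr7:127122030-127122279, minus strand: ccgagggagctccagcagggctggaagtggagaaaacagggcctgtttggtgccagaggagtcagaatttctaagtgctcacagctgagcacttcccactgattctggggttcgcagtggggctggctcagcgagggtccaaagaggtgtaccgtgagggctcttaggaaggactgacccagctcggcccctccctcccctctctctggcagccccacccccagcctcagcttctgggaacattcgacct

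The motifs searched, on both strands, were the CCAAT box, the TATA box (TATAAA), the E-box (CACGTG), the D-box (TTATGTAA), the cAMP response element (TGACGTCA), the FOXA motif (TGTTTAC), the C/EBP motif (TTGCGCAA), the half-site of the glucocorticoid receptor (TGTTCT) and the half-site of nuclear receptors (AGGTCA). The CCAAT box occurred 3 times before Kyat3, starting 90 (opposite strand), 73 and 42 bases ahead of its start, and once before Tdo2, at 78 bases. It was present in 2 of 7 members' promoters against 33.8% of 32536 mouse promoters. AGGTCA was found before Tdo2 and Haao, 2 of 7 members, against 14.04% of all promoters. TGTTCT was found before Haao, against 16.03%, and TATAAA before Tdo2, 229 bases ahead of the start, against 12.3%. The other 5 sets of letters were in none of the 7 windows, and Qprt carried no match at all. Base composition differed, at 56.0% G or C for Kyat3, 46.4% for Tdo2 and 60.8% for Qprt, beside a median of 52.4%. The matches are descriptions of letters and are not binding sites.

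Across the whole table the contrast of responders with non-responders gave no gene at an adjusted p under 0.05 (limma, Benjamini-Hochberg; 0% of 17210, smallest adjusted p 0.273). At an unadjusted p under 0.05, 642 genes were lower in responders (3.73%) and 732 higher (4.25%). Of the 10 members, 5 were higher and 5 lower in responders, 0 passed the adjusted threshold, and 1, Kyat3, was lower at the unadjusted threshold and none was higher. The number of members at the unadjusted threshold was 5 in the first slide series alone and 0 in the second. Over all 17210 genes, 1795 and 1184 passed it in these series. Members numbered 2 with plain background subtraction, beside 906 of all genes, and 2 with the mean of a gene's probes, beside 1387. Because the members were chosen from this contrast, nothing is read from these counts. The median difference was 0.02 over members and -0.00309 over all genes, and the median size of a difference was 0.0928 and 0.0867. Both series had the same sign for 4 of 10 members and for 8400 of 17210 genes.

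**Figure D1:**
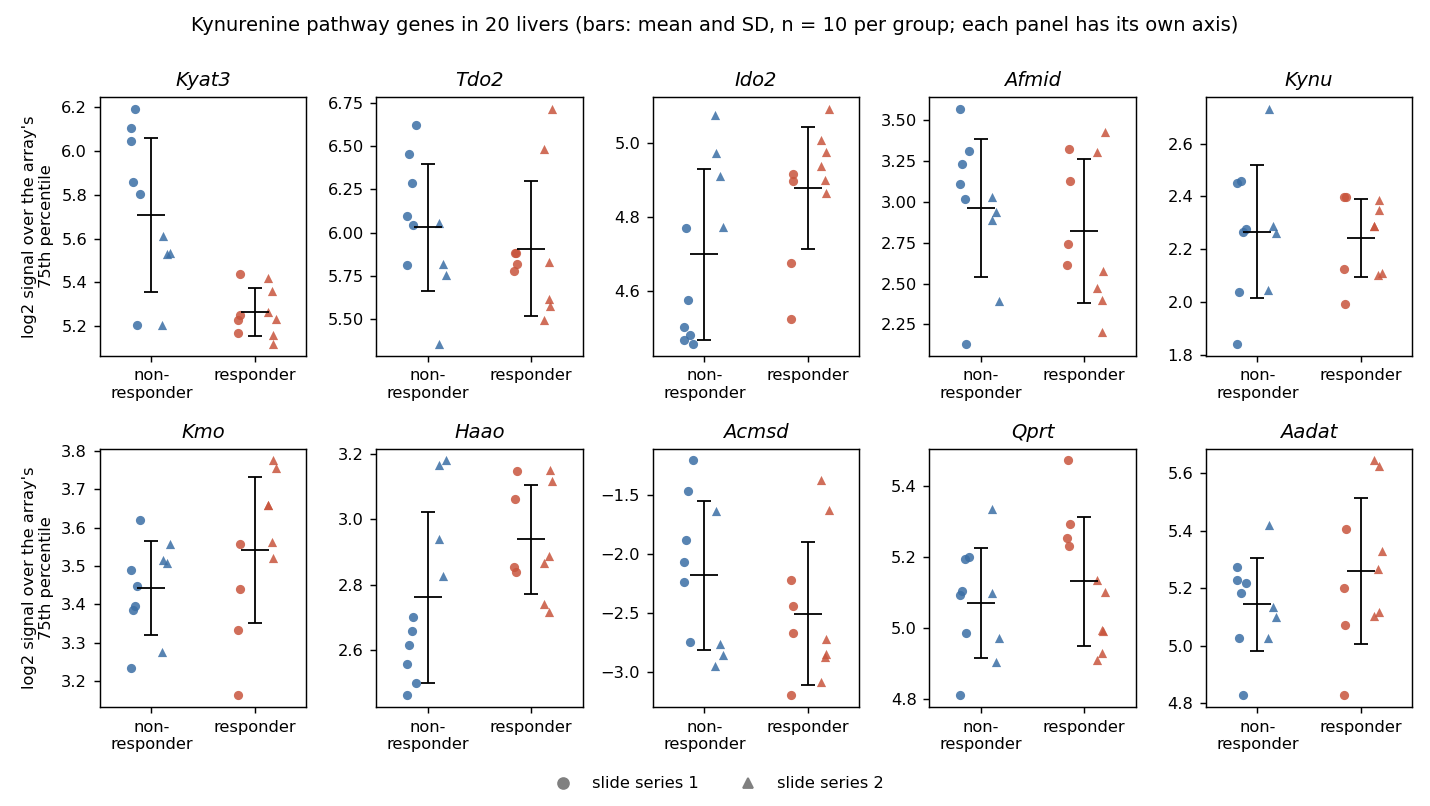
Level of each of the 10 genes in the 20 livers, as log2 signal over the array's 75th percentile, by group; circles are slide series 1, triangles slide series 2, and black bars are the mean and SD of 10 livers. For Kyat3, listed for its small p in this contrast, 8 of the 10 non-responders lie above every responder. The groups overlap more widely for the other genes, but that listing favours Kyat3, so nothing is read from the comparison.

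At the entry to the pathway, the level of Tdo2 ran from 5.49 through a median of 5.82 to 6.71 in responders and from 5.36 through 6.05 to 6.62 in non-responders. The groups overlapped over nearly their whole ranges. The means were 5.91 ± 0.39 (SD, n = 10) and 6.03 ± 0.37 (SD, n = 10), a difference of -0.09 (SE 0.17, 95% interval -0.43 to 0.26). Slide series 1 gave -0.38 and slide series 2 gave 0.21, and whether the series differ was not tested. The highest responders were 5 and 6, at 6.71 and 6.48, and the highest non-responder was 3, at 6.62. The second Tdo2 probe differed by -0.06 (SE 0.17) and followed the first with r = 0.94 over the 20 arrays once group and series means were removed, a description of probes that share arrays.

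Ido2, the liver-expressed paralogue of the inducible dioxygenase Ido1, ran from 4.52 through 4.91 to 5.09 in responders and from 4.46 through 4.67 to 5.07 in non-responders. Its means were 4.88 ± 0.17 (SD, n = 10) and 4.70 ± 0.23 (SD, n = 10), and the difference with the series term was 0.12 (SE 0.06, 95% interval -0.01 to 0.26). The level depended on the series as well: the 6 non-responders of the first averaged 4.54 and the 4 of the second 4.93. Series 1 gave a difference of 0.21 and series 2 of 0.03. The second Ido2 probe differed by 0.30 (SE 0.10), from -1.88 to -1.06 in responders against -2.05 to -1.52 in non-responders. The Ido2 probes disagree on the order of livers, with r = 0.20 on the same basis. Ido1, which converts the same substrate, was detected above background on just 2 arrays, 1 of each group, so it was not tested.

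Afmid, the formamidase that releases kynurenine, ran from 2.21 through 2.67 to 3.43 in responders and from 2.13 through 3.02 to 3.57 in non-responders. Its groups shared most of their range, with a difference of -0.10 (SE 0.19, 95% interval -0.48 to 0.29). Here the series gave near values, -0.11 and -0.08. A second Afmid probe differed by -0.08 (SE 0.20) and correlated with the first at r = 0.82.

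Kmo, the hydroxylase that makes 3-hydroxykynurenine, ran from 3.16 through 3.56 to 3.77 in responders and from 3.23 through 3.47 to 3.62 in non-responders. The difference was 0.07 (SE 0.07, 95% interval -0.08 to 0.21), made up of -0.06 for series 1 and 0.19 for series 2. In the second series the 6 responders lay between 3.52 and 3.77 and the 4 non-responders between 3.28 and 3.56. Kynu, the kynureninase that cleaves the side chain, ran from 1.99 through 2.29 to 2.40 in responders and from 1.84 through 2.27 to 2.73 in non-responders. Its difference was -0.04 (SE 0.10, 95% interval -0.24 to 0.16), and non-responder spread was the wider, at an SD of 0.25 against 0.15. The second Kynu probe gave -0.07 (SE 0.16).

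Haao, which opens the ring of 3-hydroxyanthranilate, ran from 2.72 through 2.88 to 3.15 in responders and from 2.46 through 2.68 to 3.18 in non-responders. In the first slide series the groups did not overlap: the 4 responders lay between 2.84 and 3.15 and the 6 non-responders between 2.46 and 2.70. In the second they did, with responders at 2.72 to 3.15 and non-responders at 2.83 to 3.18. The differences were therefore 0.39 and -0.11, and 0.14 over both (SE 0.09, 95% interval -0.05 to 0.33). The share of all genes whose groups did not overlap in the first series was not counted.

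At the branch point, Acmsd had the widest spread of the members, from -3.20 through -2.69 to -1.37 in responders and from -2.95 through -2.15 to -1.20 in non-responders. The groups overlapped, and the difference of -0.28 (SE 0.27, 95% interval -0.85 to 0.28) was smaller than the SD within either group, 0.61 and 0.63. Series 1 had -0.70 and series 2 had 0.13. Only 8.04% of all genes varied more than Acmsd within group and slide series (SD 0.605). Qprt, the phosphoribosyltransferase that turns quinolinate into an NAD precursor, varied little (SD 0.135; 83.8% of genes varied more). It ran from 4.91 through 5.12 to 5.47 in responders and from 4.81 through 5.10 to 5.34 in non-responders, a difference of 0.09 (SE 0.07, 95% interval -0.06 to 0.24). As with Haao, the 4 responders of the first series, at 5.23 to 5.47, lay above its 6 non-responders, at 4.81 to 5.20, and the second series showed overlap and a difference of -0.07 against 0.25. Here too the share of all genes that do so was not counted.

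**Figure D2:**
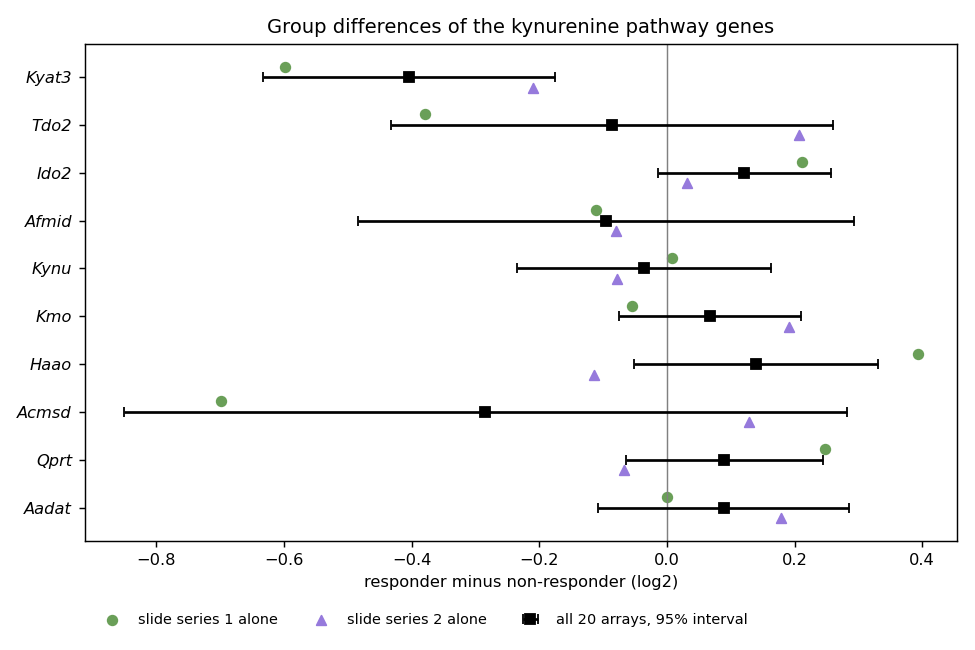
Responder minus non-responder difference of each gene (log2): black squares with 95% intervals are the fit to all 20 arrays, green circles and violet triangles the first and second slide series alone. Kyat3, listed for its small p in this contrast, has the difference of largest size, -0.40, and the series fall on opposite sides of 0 for Tdo2, Kynu, Kmo, Haao, Acmsd and Qprt.

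On the kynurenic acid branch, Kyat3, a kynurenine aminotransferase that also acts on cysteine conjugates, ran from 5.12 through 5.24 to 5.44 in responders and from 5.20 through 5.71 to 6.19 in non-responders. Of 10 non-responders, 8, from 5.53 upwards, lay above the highest responder, and non-responders 4 (5.21) and 10 (5.20) lay inside the responder range. The means were 5.26 ± 0.11 (SD, n = 10) and 5.71 ± 0.35 (SD, n = 10). With the series as a term the difference was -0.40 (SE 0.11, 95% interval -0.63 to -0.17), or 1.32-fold lower in responders. Series 1 had -0.60 and series 2 had -0.21, and each of the 10 responders was under the average of the non-responders scanned in its series. Kyat3 was listed for its small p in this contrast, so this separation is a description. The share of all genes that separate as far was not counted. Responders averaged 5.27 and 5.26 in the first and second series, and non-responders 5.87 and 5.47. Leaving out each liver in turn gave -0.46 to -0.37, and with another background correction (normexp) the value was -0.90 (SE 0.40). With normexp 9 of the 10 members were lower in responders, against 5 in the main fit.

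Non-responder 4, low in Kyat3, was also the lowest of all livers in Afmid (2.13) and of its group in Aadat (4.83), and had the highest mean of the 8 macrophage markers (3.69, against 1.97 to 3.03 in responders). Non-responder 10, the other low liver in Kyat3, had the lowest Tdo2 (5.36) and a macrophage mean of 2.98, ranked 4 of 20 from the highest. Aadat, the second aminotransferase of the branch, which also acts in lysine breakdown, ran from 4.83 through 5.23 to 5.64 in responders and from 4.83 through 5.16 to 5.42 in non-responders. Its difference was 0.09 (SE 0.09, 95% interval -0.11 to 0.29). The series gave 0.000327 and 0.18.

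Leaving out single livers also moved the differences of the other members. Their ranges are not compared with that of Kyat3, which was listed for its small p in this contrast. Acmsd ranged from -0.40 (without responder 6) to -0.16 (without responder 1), Tdo2 from -0.17 (without non-responder 10) to -0.04 (without non-responder 3), and Afmid from -0.18 (without non-responder 4) to -0.04 (without responder 1). Kynu ranged from -0.08 (without non-responder 10) to 0.03 (without non-responder 8) and so changed sign. The members that were higher in responders stayed above 0, with Ido2 at 0.09 to 0.15, Kmo at 0.03 to 0.11, Haao at 0.09 to 0.19, Qprt at 0.05 to 0.14 and Aadat at 0.06 to 0.14.

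The correlation of members across livers was asked of values from which the mean of each group within each slide series had been removed, a measure that the group difference does not enter. Of 45 pairs, 33 had a positive r, and 3 pairs, all positive, passed an adjusted p under 0.05 (permutation within group and series, two-sided, Benjamini-Hochberg over the 45 pairs). Tdo2 and Acmsd correlated at r = 0.82 (rho 0.80; permutation p = 0.00059, adjusted 0.018, and adjusted 0.0135 for rho) over 20 livers, with 0.65 in series 1 and 0.90 in series 2. Acmsd and Qprt correlated at r = 0.73 (rho 0.62; permutation p = 0.0008, adjusted 0.018, but 0.0874 for rho), with 0.64 and 0.81. Tdo2 and Qprt correlated at r = 0.61 (rho 0.58; permutation p = 0.00264, adjusted 0.0396, but 0.107 for rho), with 0.77 and 0.56. The median size of r with the other members and with all genes was 0.285 and 0.238 for Tdo2. It was 0.361 and 0.248 for Acmsd, and 0.210 and 0.207 for Qprt. For Kynu, Kmo, Haao and Aadat the median with the other members was the smaller. The share of positive r over all pairs of genes was not counted.

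**Figure D3:**
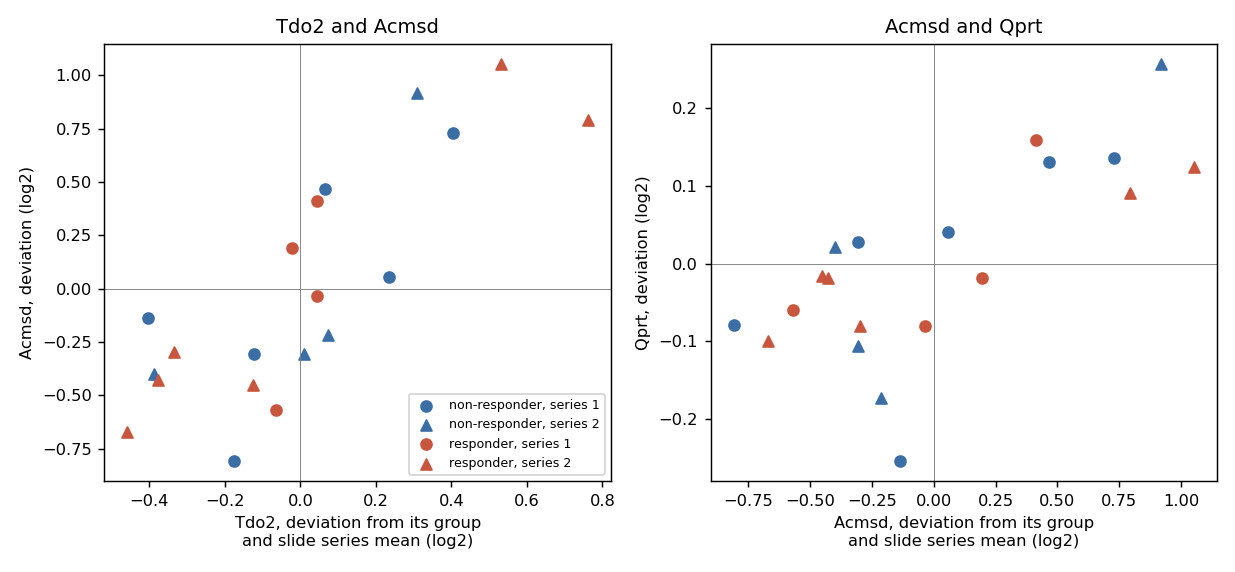
Deviation of each liver from the mean of its group and slide series (log2), for Acmsd against Tdo2 and for Qprt against Acmsd; colours are groups and shapes slide series. Livers high in Tdo2 lie high in Acmsd (r = 0.82), and livers high in Acmsd lie high in Qprt (r = 0.73).

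The r of these 3 pairs stayed positive when livers were left out, whereas the adjusted call did not always hold. Without the pair of livers farthest from the Tdo2 median, non-responder 3 and responder 5, the r of Tdo2 and Acmsd was 0.78, and that of Tdo2 and Qprt 0.59. Without non-responder 3 and responder 6, the r of Acmsd and Qprt was 0.69. With its own 2 farthest livers left out, no pair passed the adjusted threshold. Leaving out any single liver kept r of Tdo2 and Acmsd between 0.78 and 0.84, but without responder 6 or without non-responder 8 no pair of the 45 passed, the adjusted p of Tdo2 and Acmsd being 0.0517 and 0.0962. The adjusted p of Acmsd and Qprt was 0.054 and 0.0962 in the same cases. Single omissions moved r of Acmsd and Qprt between 0.65 and 0.82 and that of Tdo2 and Qprt between 0.55 and 0.68. Tdo2 with Qprt passed in 11 of 20 such cases, being lost without non-responders 3, 5 and 8 and responders 4, 5, 6, 7, 8 and 9. Without responders 5 and 6 together, chosen after the data were seen, r of Tdo2 and Acmsd was 0.68 and that of Acmsd and Qprt 0.71, and no pair passed (adjusted p = 0.334).

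**Figure D4:**
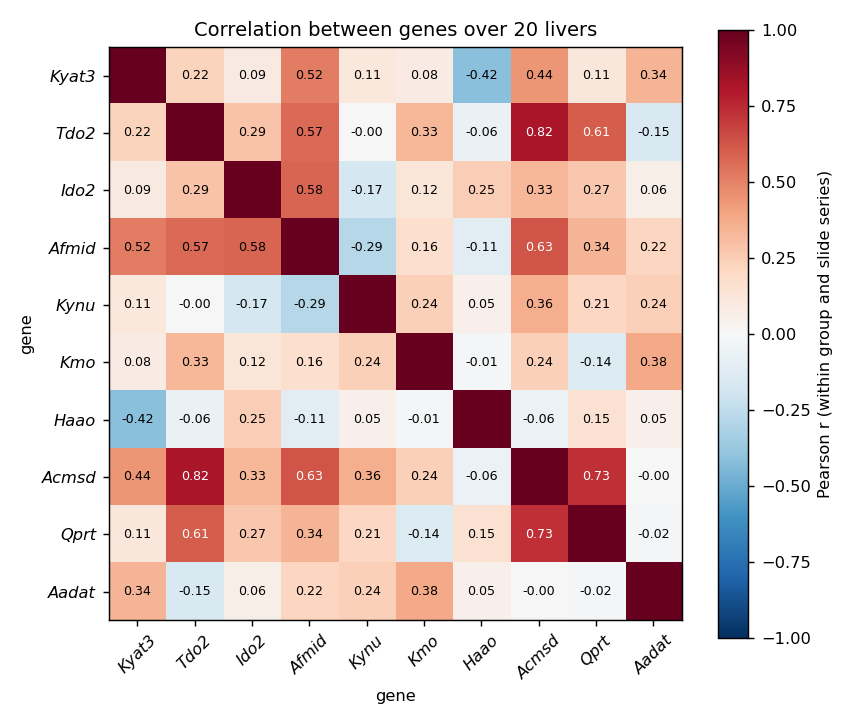
Pearson r between each pair of the 10 genes over 20 livers after removing group and slide series means, from -1 (blue) to 1 (red). The deepest red cells are Tdo2 with Acmsd (0.82) and Acmsd with Qprt (0.73), and the strongest negative value is Kyat3 with Haao (-0.42).

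Beyond these, Afmid with Acmsd had r = 0.63 (adjusted permutation p = 0.0944), Afmid with Ido2 0.58 (0.0944), and Kyat3 with Haao -0.42 (0.165). None of these passed. Between the kynurenic acid aminotransferases, Kyat3 and Aadat had r = 0.34 (adjusted permutation p = 0.427).

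Of 100 pairs of a member with an anchor gene, a gene picked to track a bodily state, 0 passed an adjusted permutation p under 0.05 (Benjamini-Hochberg over the 100). The nearest were the glucocorticoid-responsive Tat, with Tdo2 (r = 0.75, rho 0.68), Acmsd (r = 0.70, rho 0.63) and Afmid (r = 0.72, rho 0.65), each at an adjusted p of 0.123. Fkbp5, the other glucocorticoid-responsive anchor, had a lower r with Tdo2 (0.58), Acmsd (0.39) and Afmid (0.54). Its adjusted permutation p was 0.278, 0.530 and 0.286. Responders 5 and 6, which were high in Tdo2 and Acmsd, had Tat levels of 7.05 and 7.32, ranked 5 and 3 of 20 from the highest. Kyat3 ran against the macrophage gene Cd68 (r = -0.74, rho -0.69, adjusted p 0.123), with -0.93 in series 1 and -0.46 in series 2. Cd68 was highest in non-responder 4, at 0.95, the liver already described as low in Kyat3. Aadat ran against Igfbp1, a fasting- and insulin-responsive gene, at r = -0.68 (adjusted p 0.123), and Kynu against the clock output gene Dbp at r = -0.69 (adjusted p 0.128). The level of Dbp ran from 0.90 to 6.63 over the livers.

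The genes with the most similar profile to each member, by Pearson r over the same 20 centred livers and 17074 genes, are named without a test. For Kyat3 they were Fam209 (0.88), Cdk3 (0.86) and Atp2a2 (0.84). For Tdo2 they were Sec14l3 (0.93), Psmd9 (0.88) and Sec14l4 (0.87), and for Acmsd Ube2g2 (0.88), Wbp1l (0.87) and Ppp1r3c (0.86). Afmid lay nearest to Shisa8 (0.91), Eif4ebp3 (0.90) and Aass (0.88), and Qprt to Rpl19 (0.92), Dus3l (0.85) and Rpl34 (0.84), of which the Rpl genes encode ribosomal proteins. Kynu lay nearest to Tfpi2 (0.90), Zfp772 (0.88) and H2bc1 (0.87), and Kmo to Snx9 (0.85), Cyp1a2 (0.78) and Skiv2l (0.78). Haao lay nearest to Msrb1 (0.81), Cfap97 (0.80) and Harbi1 (0.79), Ido2 to Atg3 (0.75), Dock6 (0.75) and Tmem183a (0.74), and Aadat to Lrit2 (0.72), Hunk (0.71) and Them5 (0.71). For comparison, Tdo2 and Acmsd at 0.82 lay above all but 0.135% of genes by size of r with Tdo2. Acmsd and Qprt at 0.73 lay above all but 1.00% by size of r with Acmsd. Tdo2 and Qprt at 0.61 lay above all but 5.17% by size of r with Tdo2.

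Of 40 other genes of tryptophan and NAD metabolism, 39 were matched on the array and 32 passed the filter on dim probes. Those 32 comprised 17 higher and 15 lower in responders, with a median difference of 0.00522, and 0 passed the adjusted threshold. At the unadjusted threshold 1 was higher and 1 lower, 2 of 32, beside 4.25% higher and 3.73% lower over all genes, so the share of the list is near the background. That count was 0 with plain background subtraction and in the second slide series alone, 6 in the first alone, and 1 to 3 when single livers were left out. Over all 17210 genes, 906 passed with plain subtraction, 1184 in the second series, 1795 in the first, and 1115 to 1677 without single livers. The lower gene was Cyp1b1, a target of the aryl hydrocarbon receptor that binds kynurenine metabolites, with levels of -4.03 through -3.58 to -3.39 in responders and -3.71 through -3.28 to -2.40 in non-responders. It differed by -0.41 (SE 0.14), with -0.39 and -0.43 in the series, but by -0.15 (SE 0.12) with plain background subtraction and 0.26 (SE 0.30) with normexp. The higher gene was Slc3a2, a subunit of the large neutral amino acid transporters, from 2.70 through 2.94 to 3.26 in responders and 2.71 through 2.81 to 3.02 in non-responders, a difference of 0.15 (SE 0.07), which became -0.21 (SE 0.25) with normexp.

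**Figure D5:**
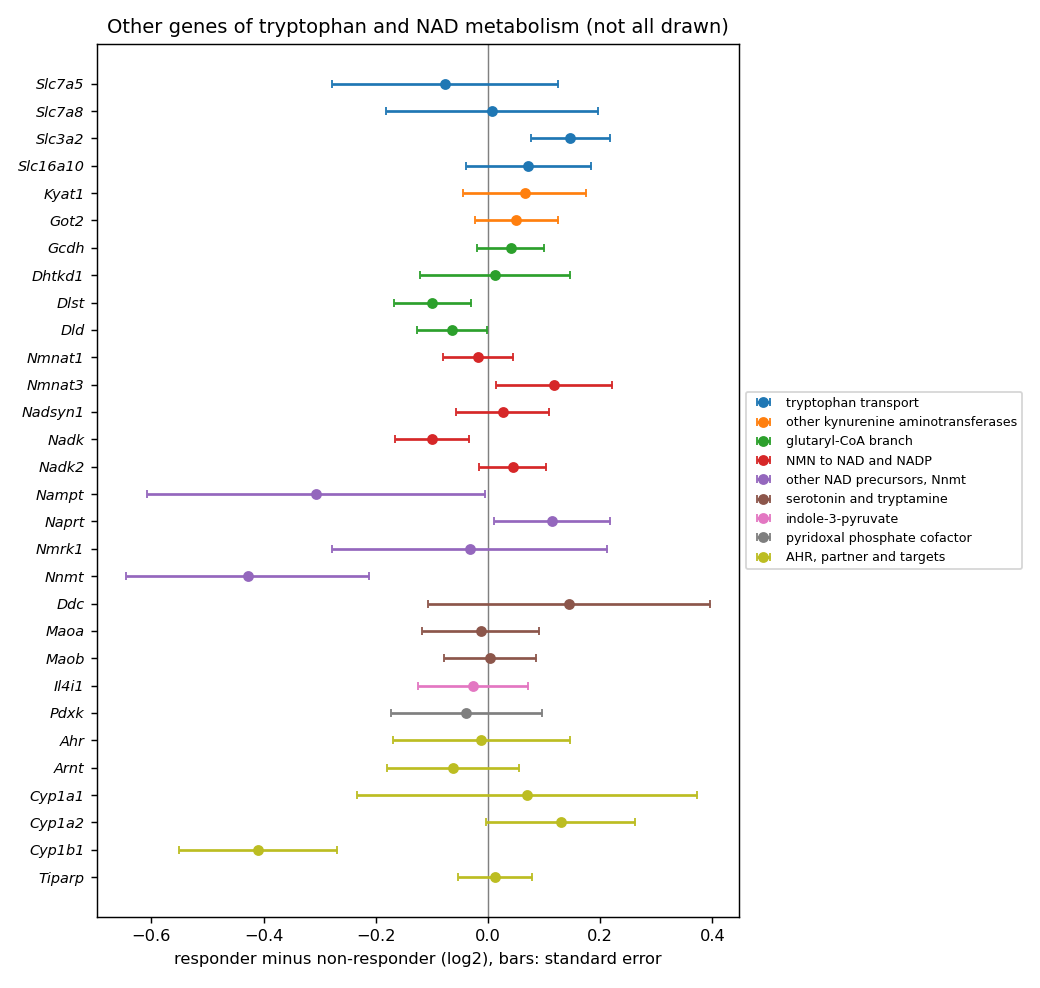
Responder minus non-responder difference (log2) of other kept genes of tryptophan and NAD metabolism, not all of which are drawn, coloured by role, with bars of 1 standard error. Nmrk2, at -0.88 with an SE of 1.09, is among the genes left out. Of those drawn, Nnmt (-0.43) and Cyp1b1 (-0.41) lie farthest below 0 and Slc3a2 (0.15) is the highest.

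Among the other kept genes of the list, the remaining aminotransferases, Kyat1 and the mitochondrial aspartate aminotransferase Got2, differed by 0.07 (SE 0.11) and 0.05 (SE 0.07). The nicotinamide methyltransferase Nnmt ran from 5.34 through 5.94 to 7.20 in responders and 6.04 through 6.63 to 6.97 in non-responders, a difference of -0.43 (SE 0.22). The NAD kinases Nadk and Nadk2 differed by -0.10 (SE 0.07) and 0.04 (SE 0.06). The oxoglutarate dehydrogenase subunit Dlst differed by -0.10 (SE 0.07), and the pyridoxal kinase Pdxk, which helps to supply the cofactor of the aminotransferases and of kynureninase, by -0.04 (SE 0.13). Cyp1a2 differed by 0.13 (SE 0.13), and the nicotinamide riboside kinase Nmrk2 by -0.88 (SE 1.09), or -1.35 without responder 7 and -0.22 without non-responder 7. The receptor gene Ahr differed by -0.01 (SE 0.16) and its partner Arnt by -0.06 (SE 0.12). Not kept were Ido1, Ahrr, Gpr35, Nmnat2, Slc6a19, Tph1 and Tph2, which were below the detection filter.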

How the data were processed

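Deposited values are spot intensities of Agilent Feature Extraction, background-subtracted and not scaled between arrays, per the file headers (version 10.5.1.1; the submitters' processing notes give 9.1). The making of the authors' deposited intensity table is not stated in the labels or headers. The other column used, the deposited probe coordinates and detection flags, is on mm9 per the file headers. Here log2 processed intensity minus each array's 75th percentile was fitted with limma 3.58.1 in R 4.3.3 (group and slide series, 20 arrays). Probes had to be well above background on 5 arrays of either group, and the brightest kept probe stood for a gene, leaving 26159 probes. Correlations used 100000 permutations within group and slide series, and 20000 where livers were left out. The number of arrays limits the precision. The fit and correlations were checked on simulated data.

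The members and gene lists were chosen with earlier results of these data known. The text names all members, then Ido1, Kyat1, Got2 and up to 10 pathway genes ranked by unadjusted p among those whose series share a sign, 3 nearest genes per member and 10 anchor genes (Dbp, Per1, Fkbp5, Tat, Cyp4a14, Igfbp1, Adipoq, Ctrb1, Cd68, Top2a); Ahr and Arnt were named after their values were seen. Alternatives were other background corrections and scalings, the authors' table, each series, a replicate block and leaving out arrays. Replicate numbers were not used to pair livers in the main fit, and the values do not settle whether the numbers mark pairs. Same-numbered arrays correlated between -0.18 and 0.59, with 6 of 10 over 0.1. One gene that the rule names, and some members' promoters, are not reported here.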

Additional observations from a re-analysis of the deposited data

Results flagged for a closer look

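The level of Got2, the mitochondrial aspartate aminotransferase that can transaminate kynurenine, was 5.69 in non-responder 5, apart from the nearest other non-responder at 5.90. The gap took 0.515 of the range of that group of 10, above Dixon's critical value of 0.466. It was 1 of 44 groups examined, and chance alone sets apart about 1 group in 20.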

How the results depend on the processing

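The difference of Kyat3, listed for its small p in this contrast, stayed below 0 in all 14 settings (-0.90 to -0.21). It was -0.90 with normexp, against -0.40 in the main fit. That of Afmid also stayed below 0 in all 14 settings (-0.39 to -0.05). Yet its main difference, -0.10 (SE 0.19), was smaller than its SE, so a constant sign does not set Kyat3 apart. With normexp 400 genes, and with plain background subtraction 906, passed an unadjusted p under 0.05, against 1374; leaving out arrays gave 1115 to 1677, and no gene passed after adjustment. Normexp left array medians between -2.56 and -0.0288 of the 75th percentile, against -3.48 to -3.28, and moved the median of the other pathway genes to -0.25 from 0.00522. The signs of Ido2, Kmo, Haao, Acmsd, Qprt and Aadat turned with normexp; those of Tdo2, Haao, Acmsd and Qprt in the second series alone; those of Kmo and Kynu in the first; and that of Kynu also with the replicate block, with array weights, and without non-responder 8. Pairs of members past the threshold numbered 3, but 1 with quantile normalization, 0 in the authors' deposited values, 1 with only the series removed, 0 in the first and 1 in the second series, and 0 without the 2 farthest arrays. Member and anchor pairs numbered 2 with only the series removed, against 0. With a replicate block Kyat3 differed by -0.40 (SE 0.10), 1833 genes passed unadjusted and 0 adjusted; 3 of 10 responders correlated best with their own number. Signal over background limited Ido1, seen on 2 arrays.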
